A study of Mus musculus with 29 samples.

Results

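CD150hi HSC of 5A3+/del mice were compared with CD150hi HSC of WT mice across all measured genes, apart from the genes of the deleted interval and the nuclear genes for subunits of oxidative phosphorylation (OXPHOS). The libraries were chosen by the cell type and genotype in their labels, 5 WT/DEL and 5 WT/WT, which makes 10 of the 29 libraries of the series. In the study, RNA of sorted bone marrow stem and progenitor cells was amplified and sequenced as paired-end reads to see how a deletion that models loss of human 7q22 in myeloid malignancies alters their transcriptome. The other libraries are 10 of CD150lo HSC and 9 of CD150neg MPP, the last of which the sample labels call HSC.

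WT mice (WT/WT in the labels) carried both copies of band 5A3. The 5A3+/del mice (WT/DEL) were heterozygous for a germ line deletion present in every cell of the animal. Effects arising outside the stem cells could thus be included and cannot be told apart in these libraries. All mice had the strain C57BL/6J. Ages of WT replicates 1 to 5 were 13.28, 13.28, 13.28, 12.42 and 12.85 weeks, and ages of 5A3+/del replicates 1 to 5 were 13.28, 13.85, 12.42, 12.42 and 12.85 weeks. Replicates of the same number in the 2 genotypes were different mice, and the labels name no treatment. The interval set aside runs from the outer end of Fbxl13 to that of Srpk2 (mm9 chr5:20989665-23182266), a stretch with 35 annotated genes.

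Hematopoietic stem cells that display high levels of the surface receptor CD150 sit at the top of the blood hierarchy, divide rarely, carry a low rate of protein synthesis and tend to feed the myeloid and platelet lineages. Loss of 1 copy of a chromosome segment lowers the dose of many genes at once, and some of the genes known from human myelodysplastic syndrome act through such a dose effect, ribosomal protein genes among them. Ribosomal proteins, interferon targets, immediate early genes, cell cycle genes and surface molecules are usual readouts of the state of these cells.

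The authors deposited 1 value per gene and library in FPKM, fragments scaled to gene length and library size. WT replicates 1 to 5 held 25250346, 30863894, 27228890, 27419186 and 31541004 fragments, as worked back from the steps between low values. The 5A3+/del libraries held 26621250, 25617087, 26504018, 30915944 and 33849281 fragments. A gene with fewer than 3 fragments was taken as below the floor, which covers counting error only because the reads were amplified by PCR and carry no molecular identifiers. Between 17504 (replicate 2) and 20488 (replicate 3) genes had a value above 0 in WT, and between 17346 (replicate 1) and 21654 (replicate 3) in 5A3+/del mice.

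The label CD150hi HSC was checked against marker genes. Slamf1, which encodes CD150, had FPKM of 14.3, 15.4, 15.1, 12.5 and 14.7 in WT and 22.6, 12.4, 16.6, 9.97 and 18.9 in 5A3+/del mice. All 10 libraries expressed it, the groups overlapped, and its log2 fold change was 0.11. Kit (123 to 203), Hlf (164 to 248), Procr (42.7 to 103) and Mecom (24 to 34.2) were expressed in every library. Cd48, whose product was gated out, reached 2.17 at most, and the T cell genes Cd3e and Cd8a were at or near 0. Itga2b, which encodes the gated-out CD41, was present at low levels, from 1.54 to 8.53.

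Some libraries stood apart. Xist, the RNA of the inactive X chromosome, had an FPKM of 303 in WT replicate 3 and at most 0.230 in the other 9 libraries, and summed FPKM of Y-linked genes was 0.0222 in that library against 51.4 to 70.6. No label gives the sex of the mice. Ly6g, a neutrophil marker, had FPKM of 9.31 in WT replicate 1 and 4.82 in WT replicate 2 and was listed at 0 in the other 8 libraries. Correlations of log2 values between libraries ranged from 0.844 to 0.959, and 0 pairs were identical.

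Mll5, a histone methyltransferase family gene inside the interval (mm9 chr5:22940259-23010053), served as a check of the genotypes. Its FPKM were 42.8, 37.9, 48.5, 45.3 and 43.3 in WT and 20.7, 25.2, 28.8, 19.9 and 23.2 in 5A3+/del mice. Every 5A3+/del library lay below every WT library, with a WT mean of 43.6 ± 3.87 (SD, n = 5) and a 5A3+/del mean of 23.6 ± 3.57 (n = 5), so that no genotype label went against the data.

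Outside the interval and OXPHOS, few genes passed the test, and they lay on 13 chromosomes. The small nuclear RNA guide Scarna13, the ubiquitin pathway genes Ubxn7 and Rnf219 and the glutathione transferase gene Gstm2 rose in 5A3+/del CD150hi HSC. Genes that fell included near copies of ribosomal protein genes (Rpl12-ps1, Gm10343) and genes for actin and vesicle traffic (Arpc3, Trappc4, Klc4), the antioxidant defense (Gpx4), cofactor synthesis (Mocs1), protein turnover and assembly (Ube2j2, Pih1d1), chromatin (Hist1h2ak) and growth factor signaling (Lrig3), beside a pseudogene (Gm12483). Across groups of genes, ribosomal protein genes lay lower as a family, and 11 of 47 interferon response genes and 5 of 15 mitochondrially encoded genes were higher at an unadjusted p under 0.05, as were 6.30% of all genes. The former count fell to 6 without 5A3+/del replicate 3 and the latter to 3 without WT replicate 2.

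The test was limma on log2(FPKM + 1) after quantile normalization, with Benjamini-Hochberg adjustment over 15409 genes, those whose FPKM reached 1 in 4 or more of all 29 libraries. Fold changes on this scale understate the change of genes with low values. Of all tested genes 24 had an adjusted p under 0.05 (0.156%), 5 of them higher (0.0324%) and 19 lower (0.123%) in 5A3+/del mice. Of these, 5 belonged to the interval and 1 to OXPHOS. The 15314 genes outside both held the other 18, of which 5 rose and 13 fell. At an unadjusted p under 0.05, 13.1% of all tested genes differed, 6.30% higher and 6.79% lower, and 1988 of these genes lay outside both sets. The median log2 fold change was 0.00 and the median size 0.19. On chromosome 5 outside the interval, 12.7% of 935 genes had an unadjusted p under 0.05, against 13% of all outside genes, and 1 gene, Arpc3, was called.

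The count of 18 moved with the libraries used, where leaving out a replicate also left out the CD150lo and CD150neg libraries of the same mouse. It was 10 without WT replicate 1, 4 without WT replicate 2, 23 without WT replicate 3, 2 without WT replicate 4 and 34 without WT replicate 5. Without 5A3+/del replicates 1 to 5 in turn it was 6, 5, 10, 5 and 3. Scaling each library by its median in place of quantile normalization also gave 18 genes, 8 higher and 10 lower, with 15 shared. With age as a factor in the fit there were 18 as well, but 9 higher and 9 lower, with 10 shared. With the length and GC trends removed there were 19, 10 higher and 9 lower, with 12 shared. In a fit of the CD150hi libraries alone, 0 genes passed the limma test and 1183 had an unadjusted p under 0.05. Only Scarna13 among the 18 was called with each of the 10 libraries left out, whereas Rpl12-ps1 was called in 6 of these fits, Mocs1 in 5, Pih1d1 in 4, Arpc3, Rnf219 and Gpx4 in 3 and the others in at most 2.

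**Figure D1:**
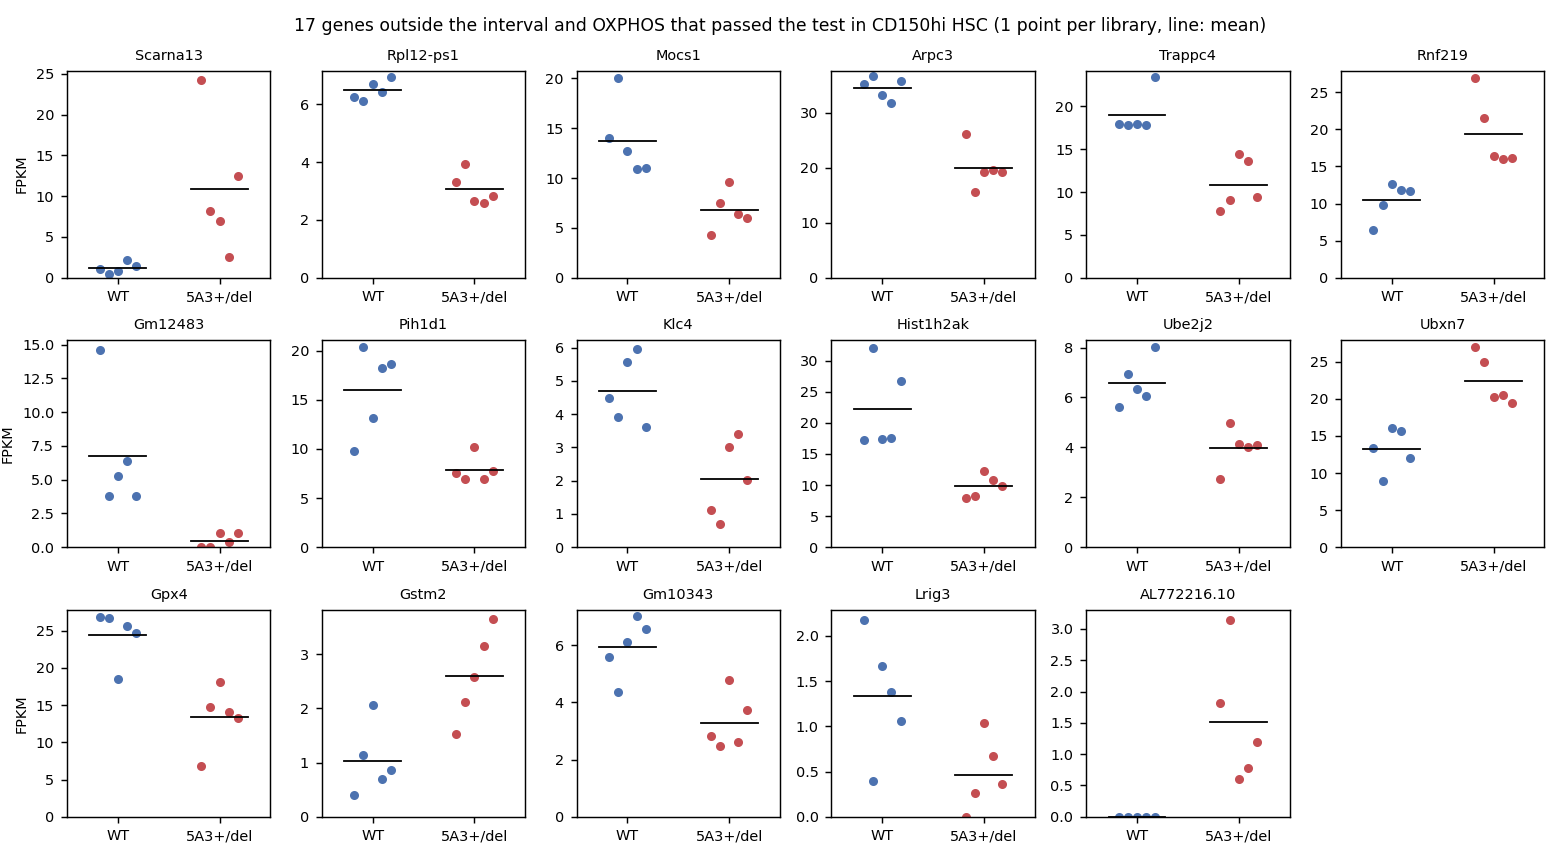
FPKM of 17 of the 18 genes outside the interval and OXPHOS that passed the limma test, 1 panel per gene, with a point for each of 5 WT and 5 5A3+/del CD150hi libraries and a line at each group mean. Scarna13 ran from 0.471 to 2.12 in WT libraries and from 2.59 to 24.2 in the others.

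Scarna13 is a small Cajal body RNA of the H/ACA class, which guides modification of the RNAs of the spliceosome. Its FPKM were 1.01, 0.471, 0.801, 2.12 and 1.38 in WT and 24.2, 8.23, 7.00, 2.59 and 12.5 in 5A3+/del mice. All 5A3+/del libraries lay above all WT libraries, replicate 1 highest and replicate 4 just above the highest WT value. The values rest on 7, 4, 6, 16 and 12 fragments in WT and on 177, 58, 51, 22 and 116 in 5A3+/del mice. Its log2 fold change was 2.19 ± 0.34 (SE, limma adjusted p = 0.00550), beside 0.29 in CD150lo HSC and -0.14 in CD150neg MPP. Tests of these differences gave adjusted p = 0.999 against CD150lo HSC and 0.185 against CD150neg MPP. The gene spans mm9 chr12:106269285-106269559 on the minus strand, and its 275 bases are printed because this RNA had the smallest p outside the interval. The capitals mark the ACA box that gives the class its name, here 3 bases from the 3′ end:
Scarna13: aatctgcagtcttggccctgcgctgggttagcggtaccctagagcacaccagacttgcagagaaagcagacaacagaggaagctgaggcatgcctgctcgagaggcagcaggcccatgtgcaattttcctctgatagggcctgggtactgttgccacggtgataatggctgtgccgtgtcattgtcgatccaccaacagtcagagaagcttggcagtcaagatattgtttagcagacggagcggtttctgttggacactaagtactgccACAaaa

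A second small RNA rests on few fragments. AL772216.10, listed as a microRNA gene within Sfmbt2, had 0 fragments in all 5 WT libraries and 6, 10, 2, 3 and 5 fragments in 5A3+/del libraries (limma adjusted p = 0.0480), so that all WT libraries and 5A3+/del replicate 3 were under the floor and no fold change is given. An FPKM of 1 was reached in 3 of the CD150hi libraries, all 5A3+/del. In the fits with 1 replicate left out it could be tested in 6 and was called in 0, so a difference is not established. Its sequence is 100% identical to that of AL772216.26 over 124 bases, and FPKM of this copy, looked up after the first was seen, were 0, 0, 0, 0.294 and 0 in WT and 4.54, 2.20, 1.22, 0.261 and 2.14 in 5A3+/del mice. WT replicate 4 and 5A3+/del replicate 4 overlapped in the copy, and fragments of identical genes cannot be assigned to either.

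Among the called genes, Rpl12-ps1 and Gm10343 are near copies of ribosomal protein genes. Rpl12-ps1, 94.9% identical to Rpl12 over 624 bases, had FPKM of 6.27, 6.12, 6.70, 6.42 and 6.95 in WT and 3.31, 3.93, 2.66, 2.59 and 2.84 in 5A3+/del mice. The groups were apart, with all WT values above 6 and all 5A3+/del values below 4. Its log2 fold change was -0.88 ± 0.16 (SE, limma adjusted p = 0.0158). Rpl12 itself, which encodes a protein of the large subunit and was added after the values were seen, had FPKM of 30, 27.4, 28.9, 30.7 and 30.4 in WT and 19.2, 23.2, 23.2, 22.3 and 24.9 in 5A3+/del mice. These groups were also apart, and the log2 fold change of -0.39 did not pass (adjusted p = 0.117). Gm10343, 97.4% identical to Rpl30 over 348 bases, had 5.58, 4.38, 6.12, 7.02 and 6.56 in WT and 2.81, 2.47, 4.77, 2.60 and 3.74 in 5A3+/del mice. WT replicate 2 lay below 5A3+/del replicate 3, and the log2 fold change was -0.69 ± 0.15 (SE, limma adjusted p = 0.0436). For Rpl30, likewise added afterwards, the log2 fold change was -0.21 (adjusted p = 0.464). How fragments were shared out between such copies is not known, so the gene that carries a difference is uncertain. In bulk samples, fewer cells of a type and less RNA per cell cannot be told apart, here and for all genes that follow.

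Arpc3 encodes a subunit of the Arp2/3 complex, which starts branched actin filaments. It had FPKM of 35.2, 36.6, 33.3, 31.8 and 35.8 in WT and 26.2, 15.5, 19.3, 19.6 and 19.3 in 5A3+/del mice. Groups did not overlap, and only 5A3+/del replicate 1 came near the WT values. The log2 fold change was -0.79 ± 0.15 (SE, limma adjusted p = 0.0258), beside -0.54 for CD150lo HSC and -0.08 for CD150neg MPP. Trappc4 encodes a part of the TRAPP complexes that tether vesicles on the way through the Golgi apparatus, and its FPKM were 17.9, 17.8, 18, 17.8 and 23.4 in WT and 7.75, 9.08, 14.5, 13.6 and 9.38 in 5A3+/del mice. WT replicates 1 to 4 lay within 17.8 to 18 with replicate 5 above them, all higher than every 5A3+/del library. The difference came to -0.77 ± 0.15 (SE, limma adjusted p = 0.0383). Klc4, a light chain of the motor protein kinesin, had 4.49, 3.92, 5.56, 5.96 and 3.61 in WT and 1.11, 0.684, 3.02, 3.39 and 2.01 in 5A3+/del mice. FPKM of the groups did not overlap but after normalization they did, which makes Klc4 the exception among the 18 genes, and the log2 fold change was -0.92 ± 0.19 (SE, limma adjusted p = 0.0412). Over all genes, normalized values of the groups did not overlap for 1.10% of genes higher and 1.48% lower in 5A3+/del mice.

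Gpx4 encodes the peroxidase that reduces lipid hydroperoxides with glutathione. FPKM were 26.8, 26.7, 18.5, 25.6 and 24.7 in WT and 6.80, 14.7, 18.1, 14 and 13.3 in 5A3+/del mice. The lowest WT library, replicate 3, and the highest 5A3+/del library, replicate 3, nearly met, and 5A3+/del replicate 1 lay far below the rest. Its log2 fold change was -0.87 ± 0.18 (SE, limma adjusted p = 0.0422). Gstm2, a mu class glutathione transferase, had 0.401, 1.14, 2.06, 0.695 and 0.869 in WT and 1.52, 2.12, 2.58, 3.16 and 3.66 in 5A3+/del mice. WT replicate 3 lay above 5A3+/del replicate 1, the other libraries were apart, and the log2 fold change was 0.86 ± 0.18 (SE, limma adjusted p = 0.0436), or 1.41 with a pseudocount of 0.1, which did not pass. Mocs1 encodes the enzyme for the first step of molybdenum cofactor synthesis and had FPKM of 14, 20, 12.7, 10.9 and 11 in WT and 4.25, 7.52, 9.58, 6.41 and 6.01 in 5A3+/del mice. All WT libraries lay above all 5A3+/del libraries, replicate 2 highest. The fold change was -0.90 ± 0.16 (SE, limma adjusted p = 0.0187), against 0.09 in CD150lo HSC and 0.13 in CD150neg MPP, with adjusted p = 0.999 and 0.258 for these differences.

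Among genes of the ubiquitin pathway, Ubxn7 encodes an adaptor of the segregase p97, and its FPKM were 13.4, 8.95, 16, 15.7 and 12 in WT and 27, 24.9, 20.3, 20.5 and 19.5 in 5A3+/del mice. Every 5A3+/del library was higher than every WT library. The log2 fold change was 0.75 ± 0.15 (SE, limma adjusted p = 0.0412). Rnf219, which encodes a RING finger protein, had 6.41, 9.83, 12.7, 11.8 and 11.7 in WT and 26.9, 21.5, 16.4, 16 and 16.1 in 5A3+/del mice. Again the groups were apart, with 5A3+/del replicates 1 and 2 highest, and the log2 fold change was 0.84 ± 0.17 (SE, limma adjusted p = 0.0383). Ube2j2, a conjugating enzyme of the endoplasmic reticulum, had FPKM of 5.61, 6.94, 6.34, 6.06 and 8.03 in WT and 2.74, 4.98, 4.13, 4.01 and 4.08 in 5A3+/del mice. Its 5A3+/del values all lay below its WT values, with a log2 fold change of -0.59 ± 0.12 (SE, limma adjusted p = 0.0412). Pih1d1, part of an assembly factor that works with the chaperone Hsp90, had 9.78, 20.4, 13.2, 18.2 and 18.6 in WT and 7.52, 6.96, 10.2, 6.94 and 7.78 in 5A3+/del mice. Only WT replicate 1 overlapped with 5A3+/del mice, by replicate 3, and the difference was -0.90 ± 0.18 (SE, limma adjusted p = 0.0412), beside -0.71 for CD150lo HSC and 0.18 for CD150neg MPP. The gene overlaps Aldh16a1, and fragments from the shared stretch cannot be assigned to either with certainty.

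Hist1h2ak, a replication-dependent histone H2A gene, had FPKM of 17.3, 32.1, 17.4, 17.6 and 26.8 in WT and 7.91, 8.22, 12.3, 10.8 and 9.91 in 5A3+/del mice. Groups did not overlap, and WT replicates 2 and 5 were highest. Its log2 fold change was -1.06 ± 0.22 (SE, limma adjusted p = 0.0412), beside -0.95 for CD150lo HSC and 0.21 for CD150neg MPP. Hist1h2ao is 97.2% identical to it over 399 bases, so fragments of the pair cannot be assigned with certainty. Lrig3 encodes a transmembrane protein with leucine-rich repeats that acts on receptor signaling, and its FPKM were 2.18, 0.392, 1.67, 1.38 and 1.06 in WT and 0, 0.260, 1.04, 0.671 and 0.357 in 5A3+/del mice. WT replicate 2 lay among the 5A3+/del libraries, most values were low, and the log2 fold change was -0.69 ± 0.15 (SE, limma adjusted p = 0.0478), or -1.53 with a pseudocount of 0.1, which did not pass. Gm12483, a pseudogene inside Smc2 that is 90.7% identical to Tmc4, had 95, 30, 37, 45 and 31 fragments in WT and 0, 0, 7, 3 and 9 in 5A3+/del mice. The groups were wide apart, with a log2 fold change of -2.33 ± 0.47 (SE, limma adjusted p = 0.0412), beside 0.63 in CD150lo HSC and 1.02 in CD150neg MPP. With 5A3+/del replicates 1 and 2 at 0, its size depends on the pseudocount, and with 0.1 in place of 1 it was -3.95 and did not pass.

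A further 10 genes did not pass, with limma adjusted p between 0.0630 and 0.102. They were picked by the size of the difference among uncalled genes at an unadjusted p under 0.001 whose normalized values did not overlap. The separation of their groups was thus part of the choice. The entry 7SK, the RNA that holds the elongation factor P-TEFb inactive, had FPKM of 230, 177, 138, 350 and 269 in WT and 1039, 444, 444, 522 and 536 in 5A3+/del mice. No 5A3+/del library fell below the highest WT library, and replicate 1 was the highest of all. Its log2 fold change was 1.48, beside 0.19 in CD150lo HSC and 0.20 in CD150neg MPP. Snord72, a small nucleolar RNA, had 26.4, 22, 15.4, 42.8 and 38.8 in WT and 128, 49.6, 66.6, 49.9 and 86.8 in 5A3+/del mice. These groups were apart as well, with a log2 fold change of 1.36. Among all 202 small nucleolar RNA genes tested, 12 were higher and 8 lower at an unadjusted p under 0.05, and the median was 0.00.

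Cyp26b1, which breaks down retinoic acid, had FPKM of 3.30, 4.15, 5.06, 3.83 and 4.47 in WT and 13.8, 19, 13.7, 7.31 and 4.71 in 5A3+/del mice. The 5A3+/del replicates 1 to 4 exceeded every WT library and replicate 5 lay within the WT range, with a log2 fold change of 1.18; without that replicate it was 1.43 and passed the test. Myl10, a myosin light chain gene, had 10.9, 8.87, 58.3, 6.12 and 13.4 in WT and 0.0457, 5.75, 3.40, 2.28 and 2.12 in 5A3+/del mice. WT replicate 3 was far above all others, the groups did not overlap, and the log2 fold change was -2.16, beside -1.88 in CD150lo HSC. Icam1, the adhesion molecule bound by beta2 integrins, had 10.5, 13.6, 12, 7.27 and 7.91 in WT and 1.30, 3.77, 7.59, 4.51 and 6.00 in 5A3+/del mice. Only 5A3+/del replicate 3 exceeded the lowest WT library, replicate 4, and the log2 fold change was -1.02. Values of the tetraspanin gene Cd53 were 5.67, 6.23, 4.78, 1.84 and 6.09 in WT and 9.32, 9.92, 7.78, 7.33 and 13 in 5A3+/del mice. They did not overlap, and the log2 fold change was 0.91. The others were Stil, needed for centriole duplication (log2 fold change 0.97), the palmitoyltransferase gene Zdhhc16 (log2 fold change 0.97), 4930420K17Rik (log2 fold change 1.12) and the microRNA entry mmu-mir-2134-1 (log2 fold change -0.88).

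Genes were next grouped into 47 lists by function, each read against all tested genes, and members counted as higher or lower had an unadjusted p under 0.05. Many counts are small and move when 1 replicate is left out; a replicate named for this may not be the only one with that effect. Cytosolic ribosomal protein genes, 81 in all, lay lower as a family. Of these, 72 had a log2 fold change below 0, as did 49.3% of all genes, 35 were lower and 0 higher at an unadjusted p under 0.05, and the median was -0.18. In 16 of them every normalized 5A3+/del value lay below every normalized WT value, as in 1.48% of all genes. The mean log2 value over the list was 8.16, 8.14, 8.17, 8.16 and 8.23 in WT replicates 1 to 5 and 8.00, 8.01, 8.05, 7.93 and 7.99 in 5A3+/del replicates 1 to 5. No library crossed into the other group. Without WT replicate 5, 22 genes were lower in place of 35, the smallest number with any library left out; the CD150hi libraries alone gave 18.

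Rpl26, a protein of the large subunit, had FPKM of 319, 354, 269, 269 and 339 in WT and 207, 226, 238, 182 and 203 in 5A3+/del mice. The groups did not overlap, with a log2 fold change of -0.39 (adjusted p = 0.0523). Rps14, the gene tied to the anemia of human 5q deletions, had 614, 602, 606, 556 and 607 in WT and 430, 446, 421, 333 and 380 in 5A3+/del mice. Each WT library was above each 5A3+/del library, and the log2 fold change was -0.45 (adjusted p = 0.0772). Rpl27a had 139, 123, 97.3, 111 and 122 in WT and 86.3, 86, 94.3, 72.1 and 86.9 in 5A3+/del mice. WT replicate 3 and 5A3+/del replicate 3 came closest without meeting, with a log2 fold change of -0.40. Rps27, the most abundant gene of the list, overlapped between groups, with 3902 to 5627 in WT libraries and 3564 to 5093 in the others (log2 fold change -0.30).

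Ribosomal protein genes are short, with a median exon length of 1454 bases against 2891 over all tested genes, and gene length and base composition moved with genotype. In 10 bins from the shortest to the longest genes the median log2 fold change went from -0.04 and -0.10 in bins 1 and 2 to 0.05 in bin 10, and in 10 bins from low to high GC content it went from 0.11 to -0.10. Once a trend over both was removed in each library, 6.18% of genes were higher and 6.17% lower, and the ribosomal protein list had 24 of 80 genes lower, 0 higher and a median of -0.12. The size of the shift also moved with scaling. Scaling by the median gave 46 lower genes and a median of -0.27, and FPKM without normalization gave 49 and -0.29, while the median over all genes stayed within 0.01 of 0. By library, genes of the highest GC bin deviated from those of the lowest by a log2 value of 0.12, 0.26, -0.03, -0.03 and 0.21 in WT and 0.06, 0.02, -0.17, -0.38 and -0.11 in 5A3+/del mice. WT replicates 1, 2 and 5 lay highest and 5A3+/del replicate 4 lowest.

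**Figure D2:**
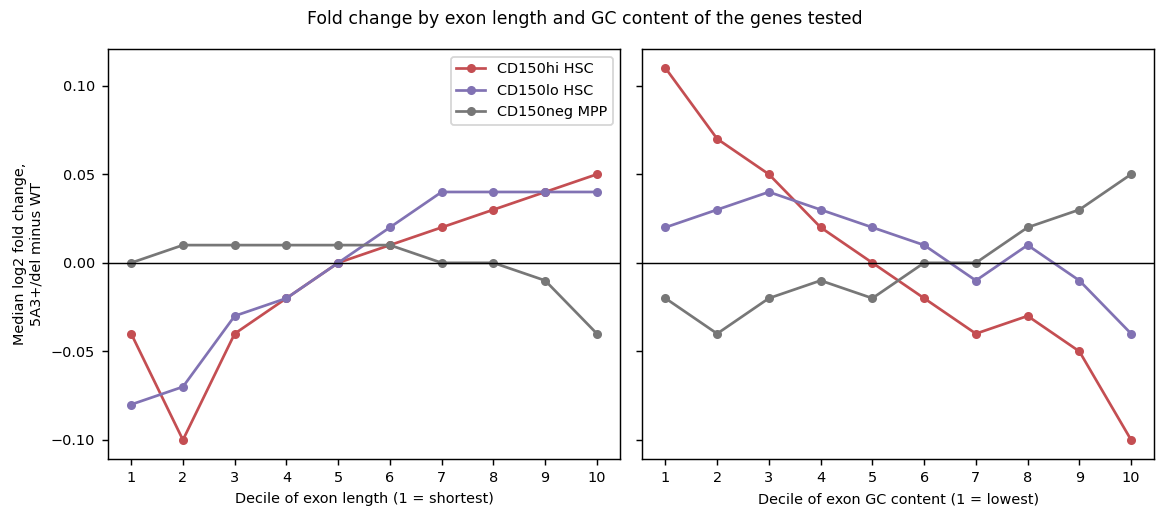
Median log2 fold change (5A3+/del minus WT) of all tested genes with a known length in 10 bins of exon length and 10 bins of GC content, for CD150hi HSC, CD150lo HSC and CD150neg MPP. In CD150hi HSC the medians ran from 0.11 in the lowest to -0.10 in the highest bin of GC content.

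In CD150lo HSC, where 2.78% of all genes were higher and 4.09% lower at an unadjusted p under 0.05, 23 ribosomal protein genes were lower and 0 higher, with a median of -0.15. The figures for CD150neg MPP were 1 lower and 0 higher, -0.03, and 2.28% and 1.99% of all genes. For 13 of the 81 genes the genotype effect differed between CD150hi HSC and CD150neg MPP at an unadjusted p under 0.05 (7.96% of all genes), and for 0 between CD150hi and CD150lo HSC (3.98% of all genes), none of which passed adjustment. Genes named as ribosomal protein pseudogenes shared the direction, with 45 of 108 lower, 1 higher and a median of -0.29, whereas all 1257 pseudogenes had 165 lower, 60 higher and a median of -0.05. Fragments of the expressed genes and of these copies cannot be kept apart.

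Other parts of the translation machinery did not move as one. Mitochondrial ribosomal protein genes had 10 of 74 lower, 3 higher and a median of -0.13 (-0.07 after the length and GC trends were removed, -0.08 without 5A3+/del replicate 4), and 1 was higher without WT replicate 1. Mrps28, of the small mitochondrial subunit, had FPKM of 28.4, 19.8, 19.9, 21.2 and 26.4 in WT and 16.5, 15.7, 12.2, 14.3 and 18.5 in 5A3+/del mice. The groups did not overlap (log2 fold change -0.56). Translation factors gave 6 of 48 lower and 3 higher; without 5A3+/del replicate 4 the lower count was 2, and without WT replicate 3 the higher count was 5. Eif4a2, a helicase that unwinds mRNA for initiation, had 111, 112, 111, 97.8 and 90.6 in WT and 140, 145, 128, 159 and 155 in 5A3+/del mice. All 5A3+/del libraries were higher (log2 fold change 0.55, adjusted p = 0.0772). Eif2b5, part of the exchange factor of eIF2, had 7.87, 9.95, 7.53, 7.50 and 11.2 in WT and 3.99, 5.49, 5.37, 6.42 and 4.35 in 5A3+/del mice. Here all 5A3+/del libraries were lower (log2 fold change -0.65, adjusted p = 0.0519). Within the initiation factor eIF3, Eif3e was higher (log2 fold change 0.61) and Eif3h lower (log2 fold change -0.29) at an unadjusted p under 0.05, each without overlap, and Btf3, a factor that binds nascent chains, was lower (log2 fold change -0.38). Of 40 ribosome biogenesis genes, 5 were lower and 0 higher; without WT replicate 5, 2 were lower, and without 5A3+/del replicate 1, 6 were higher.

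Interferon response genes lay higher. Of 47, 39 had a log2 fold change above 0, 11 were higher and 0 lower at an unadjusted p under 0.05, and the median was 0.21. Mean log2 values were 4.17, 4.00, 4.21, 4.13 and 4.06 in WT and 4.43, 4.42, 4.50, 4.09 and 4.26 in 5A3+/del libraries. Replicate 4 of the 5A3+/del mice lay within the WT range, and the others above it. With 1 library left out, the number of higher genes ran from 6 without 5A3+/del replicate 3 to 13 without 5A3+/del replicate 4, and it was 7 without WT replicate 2 or 5A3+/del replicate 1 and in the CD150hi libraries alone.

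Gbp3, a guanylate binding protein induced by interferon gamma, had FPKM of 6.87, 6.37, 9.04, 7.39 and 4.65 in WT and 14.3, 14.5, 16.8, 9.61 and 10.6 in 5A3+/del mice. The groups did not overlap, and the log2 fold change was 0.85 (adjusted p = 0.0519). Ifitm3, a membrane protein that blocks virus entry and is abundant in stem cells, had 777, 676, 597, 702 and 622 in WT and 989, 1008, 925, 738 and 811 in 5A3+/del mice. Only 5A3+/del replicate 4 lay within the WT range, with a log2 fold change of 0.47 (adjusted p = 0.0519). Psmb9, an immunoproteasome subunit, had 24.8, 34.8, 29.9, 29.1 and 31.8 in WT and 50.5, 46.6, 40.6, 32.6 and 36.1 in 5A3+/del mice. Again replicate 4 was the 5A3+/del library among the WT values (log2 fold change 0.44). The GTPase gene Iigp1 had a log2 fold change of 0.54. Genes for antigen presentation had 2 of 23 higher and 0 lower, but 0 higher without WT replicate 4, 4 higher without WT replicate 1 and 2 lower without 5A3+/del replicate 4. The Gimap family of lymphoid GTPases gave 2 of 8 higher and 0 lower and a median of 0.20, with 1 higher without WT replicate 2, and Gimap4 had 12.4, 8.77, 9.35, 11.4 and 8.07 in WT and 19, 15, 17.4, 14.6 and 14.6 in 5A3+/del mice. Its groups did not overlap (log2 fold change 0.65). Gimap7, the other higher gene of the family, had a log2 fold change of 1.20, and its groups overlapped. Among inflammatory and NF-kB genes 2 of 27 were higher and 4 lower, with 1 lower without 5A3+/del replicate 4 and 1 higher without WT replicate 4.

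**Figure D3:**
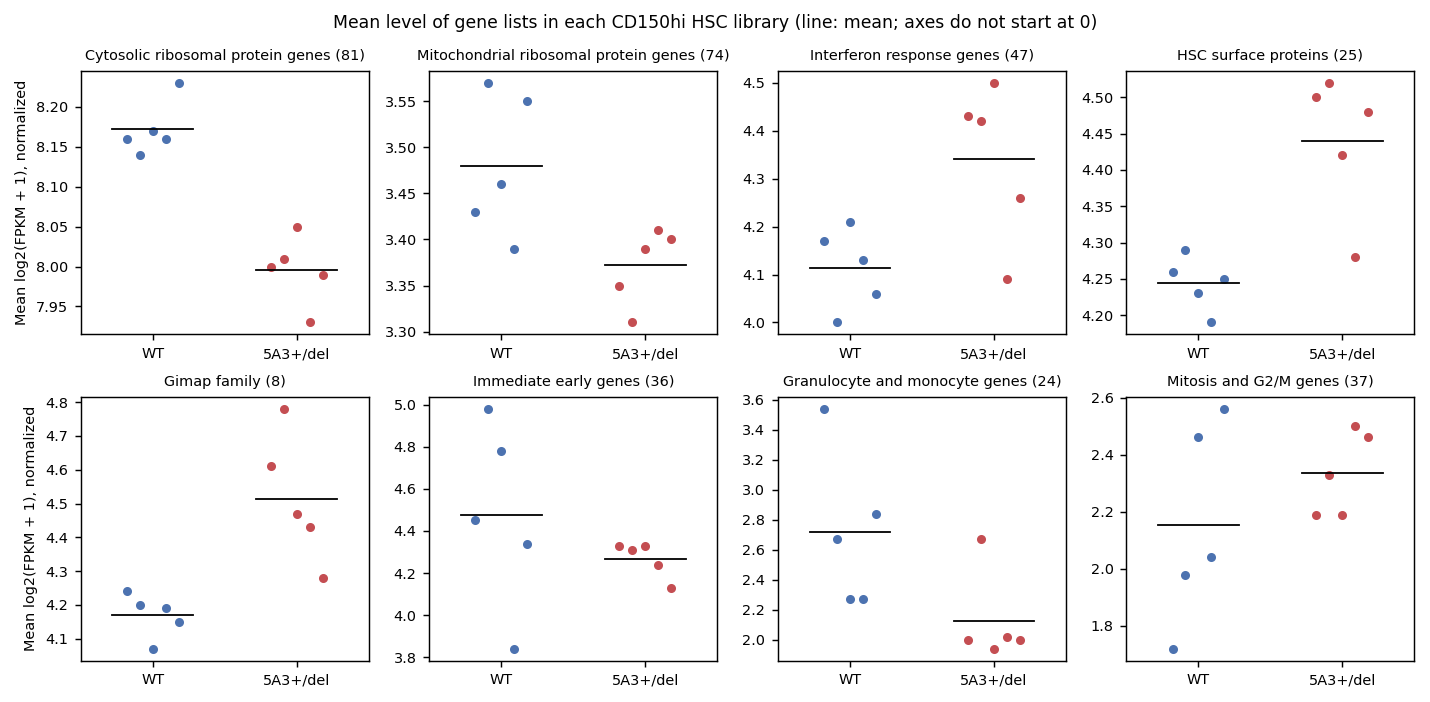
Mean log2(FPKM + 1) after normalization over the genes of 8 lists in each CD150hi library, with WT and 5A3+/del libraries as separate points. The means of ribosomal protein genes were 8.14 to 8.23 in WT libraries and 7.93 to 8.05 in the others, and those of immediate early genes spread from 3.84 to 4.98 in WT.

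At an unadjusted p under 0.05, 5 of 25 HSC surface protein genes were higher and 1 lower (6.30% and 6.79% of all genes). Of the list, 19 had a log2 fold change above 0, and the median was 0.18. Under median scaling or without normalization 3 were higher, and the medians were 0.16 and 0.14, whereas 8 were higher, with a median of 0.16, once the length and GC trends were removed. With age as a factor in the fit 6 were higher, and the median fell to 0.10; 0 were lower without WT replicate 2. Mean log2 values of the list were 4.26, 4.29, 4.23, 4.19 and 4.25 in WT and 4.50, 4.52, 4.42, 4.28 and 4.48 in 5A3+/del libraries, with replicate 4 of the latter inside the WT range. Tie1, a receptor kinase of endothelial and stem cells, had FPKM of 19.1, 19.4, 21.1, 18 and 19.3 in WT and 26.6, 25, 24.6, 22.4 and 29.4 in 5A3+/del mice. The groups did not overlap (log2 fold change 0.38). Ly6a, which encodes the sorting marker Sca-1, had 120, 155, 104, 117 and 93 in WT and 146, 203, 211, 136 and 160 in 5A3+/del mice. WT replicate 2 overlapped (log2 fold change 0.61). Cd34 had 30.2, 20.7, 32.2, 32.7 and 53 in WT and 38.4, 57.7, 45.5, 46.7 and 55.9 in 5A3+/del mice. WT replicate 5 lay among the 5A3+/del values (log2 fold change 0.57). The list was not particular to CD150hi HSC. In CD150lo HSC 5 of its genes were higher and 1 lower, with a median of 0.12. In CD150neg MPP 2 were higher and 0 lower, with a median of 0.11. Of all genes, 2.78% were higher in CD150lo HSC and 2.28% in CD150neg MPP.

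Transcription factors of HSC had 3 of 30 higher and 2 lower. Higher genes included Zfp521 (log2 fold change 0.35), whose groups did not overlap, and Lmo2 (log2 fold change 0.40), whose groups overlapped. The lower genes were Hoxa9, which sustains self-renewal (log2 fold change -0.46), and Gfi1b, which restrains stem cell expansion and drives the megakaryocyte and erythroid lineages (log2 fold change -0.79). For both lower genes the groups overlapped. Genes known to mark aged HSC gave 4 of 24 higher and 1 lower and a median of 0.11, among them Selp, the platelet adhesion molecule P-selectin (log2 fold change 0.91). The median was 0.06 without WT replicate 4 and 0.17 without WT replicate 5, and 0 were lower without WT replicate 3. Homing and adhesion genes had 3 of 32 higher and 2 lower and a median of 0.13, with 5 higher without WT replicate 3 and 1 lower without WT replicate 2. Jam2, a junctional adhesion molecule, had FPKM of 2.04, 1.28, 4.41, 2.59 and 3.62 in WT and 6.35, 5.30, 5.38, 4.02 and 6.23 in 5A3+/del mice. WT replicate 3 overlapped with 5A3+/del replicate 4 (log2 fold change 0.80, adjusted p = 0.0519). Itgb2, the beta2 integrin chain that binds Icam1, had 3.59, 2.79, 6.04, 8.20 and 6.99 in WT and 11.8, 6.91, 10.3, 10.1 and 11.2 in 5A3+/del mice. Its WT replicates 4 and 5 overlapped with 5A3+/del replicate 2 (log2 fold change 0.81).

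Cytokine receptor and signaling genes had 4 of 46 higher and 1 lower; 10 were higher without 5A3+/del replicate 4 and 2 without WT replicate 2, and 0 were lower without WT replicate 1. Genes of the FoxO, LKB1 and mTOR pathways, which keep HSC quiescent and tune growth, gave 4 of 30 higher and 1 lower, Foxo3 among the former (log2 fold change 0.28). Hedgehog genes had 2 of 7 higher and 1 lower, Evc with a log2 fold change of 0.69. Imprinted growth genes had 2 of 14 higher and 0 lower. Without WT replicate 2 the Hedgehog list had 1 higher and 0 lower genes. The imprinted list had 1 higher gene without WT replicate 3 and 1 lower gene without 5A3+/del replicate 2.

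Immediate early genes, which respond within minutes to growth factors or handling, had 5 of 36 lower and 0 higher at an unadjusted p under 0.05, 30 with a log2 fold change below 0 and a median of -0.20. Their mean log2 values were 4.45, 4.98, 4.78, 3.84 and 4.34 in WT and 4.33, 4.31, 4.33, 4.24 and 4.13 in 5A3+/del mice. The WT libraries spread more widely than the difference, replicate 2 highest and replicate 4 lowest. Without WT replicate 2, 1 gene was lower, 2 were higher and the median was -0.09; without WT replicate 4, 9 were lower and the median was -0.38. The median was -0.12 without WT replicate 3, and 3 genes were lower without 5A3+/del replicate 1 or 5. With age as a factor in the fit 3 were lower, 3 were higher and the median was -0.09. Ier2 had FPKM of 56.8, 66, 61.5, 45.5 and 49.7 in WT and 39.2, 27.9, 42.6, 32.5 and 34.8 in 5A3+/del mice. Each WT library was above each 5A3+/del library (log2 fold change -0.63, adjusted p = 0.0782). The MAP kinase phosphatase genes Dusp2 (log2 fold change -0.54) and Dusp5 (log2 fold change -0.66) were lower with overlap, WT replicate 2 being highest for both.

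Chaperone and heat shock genes had 8 of 33 lower and 1 higher; 4 were lower without 5A3+/del replicate 2, 5 were higher without WT replicate 3 and 0 without WT replicate 5. Hspe1, the mitochondrial partner of Hsp60, had 106, 86.6, 81.7, 77 and 91.3 in WT and 44.3, 52.7, 78.2, 68.9 and 64.5 in 5A3+/del mice. Only the lowest WT library, replicate 4, and 5A3+/del replicate 3 overlapped (log2 fold change -0.48). Genes of the unfolded protein response had 0 of 24 higher and 0 lower, with 1 higher without WT replicate 4 and 1 lower without 5A3+/del replicate 1. Proteasome subunits had 5 of 42 lower and 1 higher; 8 were lower without WT replicate 2 and 2 higher without 5A3+/del replicate 1. Among p53 targets and DNA damage genes 0 of 33 were higher and 1 lower (0 without 5A3+/del replicate 1), and among genes of the BCL2 family and cell death 1 of 27 was higher, the protease gene Casp1 (log2 fold change 0.77), and 2 lower. Without 5A3+/del replicate 1, 4 of these were higher, and without WT replicate 1, 0 were lower.

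Cell cycle genes showed small counts. Mitosis and G2/M genes had 5 of 37 higher, 1 lower and a median of 0.15, with 1 higher without WT replicate 2 and 2 lower without WT replicate 1. The median was 0.05 without WT replicate 1 and 0.26 without WT replicate 3. Ttk, the kinase of the spindle checkpoint, had FPKM of 0.505, 2.63, 3.79, 1.47 and 4.40 in WT and 9.43, 3.97, 2.96, 5.34 and 6.10 in 5A3+/del mice. The groups overlapped, with 5A3+/del replicate 1 highest and WT replicate 1 lowest (log2 fold change 0.93). Mad2l1, which acts in the same checkpoint, had a log2 fold change of 0.77, the mitotic cyclin gene Ccnb2 one of 1.31 and the kinesin gene Kif20a one of -0.55. DNA replication genes had 3 of 43 higher and 3 lower. The higher count was 1 without WT replicate 1 and 5 without WT replicate 3, and the lower count was 1 without 5A3+/del replicate 1 and 6 without 5A3+/del replicate 4. G1 cyclins, CDKs and their inhibitors had 0 of 23 higher and 1 lower, with 2 higher without 5A3+/del replicate 1, and 0 lower without WT replicate 1 but 2 without 5A3+/del replicate 2.

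Replication-dependent histone genes went both ways, with 5 of 50 higher, 4 lower and a median of -0.04 that became 0.13 without the length and GC trends. Hist1h2bm had FPKM of 29.3, 16.1, 21.7, 18.7 and 53.1 in WT and 96.1, 63.2, 33.9, 51.7 and 60 in 5A3+/del mice. WT replicate 5 overlapped with the lower 5A3+/del libraries (log2 fold change 1.18). Hist2h3c2 had 2.23, 1.31, 1.20, 1.62 and 3.26 in WT and 3.57, 5.75, 3.73, 7.01 and 6.37 in 5A3+/del mice. Its groups were apart (log2 fold change 1.12). Without WT replicate 4, 7 histone genes were lower, and without WT replicate 3, 3 were higher and the median was -0.20; it was 0.06 without WT replicate 1. Genes for H3K4 methyltransferases and Polycomb had 3 of 41 higher and 1 lower, and DNA methylation genes 2 of 17 higher and 0 lower. Without WT replicate 2 these lists had 1 and 0 higher genes, and without WT replicate 4 the former had 3 lower.

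Splicing and cohesin genes that are mutated in myelodysplastic syndrome, with their close relatives, had 3 of 27 higher, 2 lower and a median of 0.11, which was 0.04 without WT replicate 2 and 0.05 with the length and GC trends removed. Sf3b1, of the spliceosome part that binds the branch site, had FPKM of 56.6, 54.8, 66.2, 61.2 and 60.4 in WT and 71.7, 72.7, 84.2, 70 and 73.3 in 5A3+/del mice. All 5A3+/del libraries were higher (log2 fold change 0.33). Luc7l3, a splicing factor with a similar pattern, had 22.6, 17.3, 25.8, 24.1 and 22.7 in WT and 29.3, 29.3, 29.3, 36.1 and 32.8 in 5A3+/del mice. No overlap was seen here either (log2 fold change 0.46). U2af1, which recognizes the 3′ splice site, had 33.2, 34.7, 33.3, 25.8 and 40.5 in WT and 18.9, 25.8, 20.4, 27.6 and 23 in 5A3+/del mice. WT replicate 4 lay below 5A3+/del replicate 4 (log2 fold change -0.52, adjusted p = 0.114). Smc5, of a repair complex related to cohesin, had a log2 fold change of 0.57.

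Myeloid tumor suppressor candidates on other parts of human 7q gave 2 of 10 lower and 0 higher outside the interval. They were Rasa4, a GTPase activating protein for Ras, and Sh2b2, an adaptor of cytokine receptors. Rasa4 had FPKM of 2.35, 2.14, 1.81, 1.61 and 3.18 in WT and 0.431, 1.36, 1.55, 0.967 and 0.835 in 5A3+/del mice. Groups did not overlap at these low levels (log2 fold change -0.62, adjusted p = 0.0520). Sh2b2 had 3.05, 2.34, 1.34, 1.36 and 1.47 in WT and 0.369, 1.21, 0.676, 1.39 and 0.934 in 5A3+/del mice, with WT replicates 3 and 4 just below 5A3+/del replicate 4 (log2 fold change -0.54), and 1 gene of the list was lower without WT replicate 1 and 1 higher without WT replicate 3.

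Metabolic lists outside OXPHOS were read beside the shares over all genes, 6.30% higher and 6.79% lower at an unadjusted p under 0.05. Glycolysis and pentose phosphate genes had 2 of 35 higher and 1 lower. The higher count ran from 1 without 5A3+/del replicate 1 to 4 without WT replicate 2, and 3 were lower without WT replicate 1. Pkm2, the gene for pyruvate kinase M, had FPKM of 67.4, 70.1, 75.8, 65 and 69.5 in WT and 102, 97.7, 95, 83.1 and 98.1 in 5A3+/del mice. Every 5A3+/del library was higher (log2 fold change 0.47, adjusted p = 0.0519). The aldolase gene Aldoa was lower (log2 fold change -0.26). TCA cycle and fatty acid oxidation genes had 5 of 37 lower and 1 higher; without WT replicate 2, 1 was lower and 0 higher, and without WT replicate 3, 3 were higher. Cholesterol synthesis genes had 4 of 24 lower, 2 higher and a median of -0.16, with 7 lower and 1 higher without WT replicate 3. In the list for molybdenum cofactor and iron sulfur clusters 3 of 15 were lower and 0 higher (1 without WT replicate 1), Mocs1 and the scaffold gene Iscu (log2 fold change -0.50) among them.

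The 15 mitochondrially encoded genes, most of which encode OXPHOS subunits themselves, had 5 higher and 0 lower with a median of 0.25, which was 0.10 without 5A3+/del replicate 4 and 0.16 with the length and GC trends removed, and 3 were higher without WT replicate 2. Mean log2 values of the list overlapped, with 9.55 to 9.97 in WT and 9.51 to 10.51 in 5A3+/del libraries, where replicate 1 was the lowest of all 10.

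Antioxidant and glutathione genes had 3 of 41 higher and 3 lower, Gpx4 being the called gene; without WT replicate 2, 6 were lower. Prdx2, a peroxiredoxin of hydrogen peroxide removal, had FPKM of 28, 26.3, 26.5, 27.4 and 27.8 in WT and 15.6, 19, 25.3, 21.3 and 21.7 in 5A3+/del mice. WT values lay close together, above all 5A3+/del values (log2 fold change -0.41). Gstm1 had 96, 97.5, 83.7, 87.8 and 81.2 in WT and 175, 128, 123, 91 and 107 in 5A3+/del mice. Only 5A3+/del replicate 4 fell within the WT range (log2 fold change 0.51). Autophagy and lysosome genes had 2 of 40 higher and 4 lower, mitochondrial import and quality genes 0 of 45 higher and 5 lower, and ABC transporters 0 of 23 higher and 1 lower. The lower counts became 2 for autophagy without 5A3+/del replicate 4 and 3 for mitochondrial import without WT replicate 2, and 0 for ABC transporters without WT replicate 3. The higher counts became 4 for autophagy without 5A3+/del replicate 1 and 1 without WT replicate 5, 1 for mitochondrial import without WT replicate 3 and 1 for ABC transporters without WT replicate 2.

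Genes of the Arp2/3 complex and actin had 7 of 49 higher and 5 lower. Without WT replicate 3, 4 were higher, without WT replicate 2, 3 were lower, and without 5A3+/del replicate 4, 8 were lower. Beside Arpc3, Actg1, the gamma actin gene, had FPKM of 49.1, 56.4, 56.3, 57.3 and 64.2 in WT and 36.2, 41.7, 51, 40.4 and 44.1 in 5A3+/del mice. WT replicate 1 and 5A3+/del replicate 3 overlapped (log2 fold change -0.40, adjusted p = 0.0772). Pfn1, profilin, had a log2 fold change of 0.36 and Was, the activator of Arp2/3 in blood cells, one of 0.38.

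Removal of the length and GC trends moved other lists too. Lower genes then numbered 5 among chaperones, 3 in ribosome biogenesis, 3 among H3K4 methyltransferases and Polycomb, 2 each in glycolysis and cytokine signaling and 1 among megakaryocyte genes. Higher genes numbered 2 in the TCA cycle list, 1 each among Gimap and imprinted genes, ABC transporters and mitochondrial import genes and 0 among proteasome subunits. The unfolded protein response then had 1 higher and 1 lower and DNA methylation 1 lower, and medians were -0.08 for granulocyte and monocyte genes and 0.07 for genes of aged HSC.

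**Figure D4:**
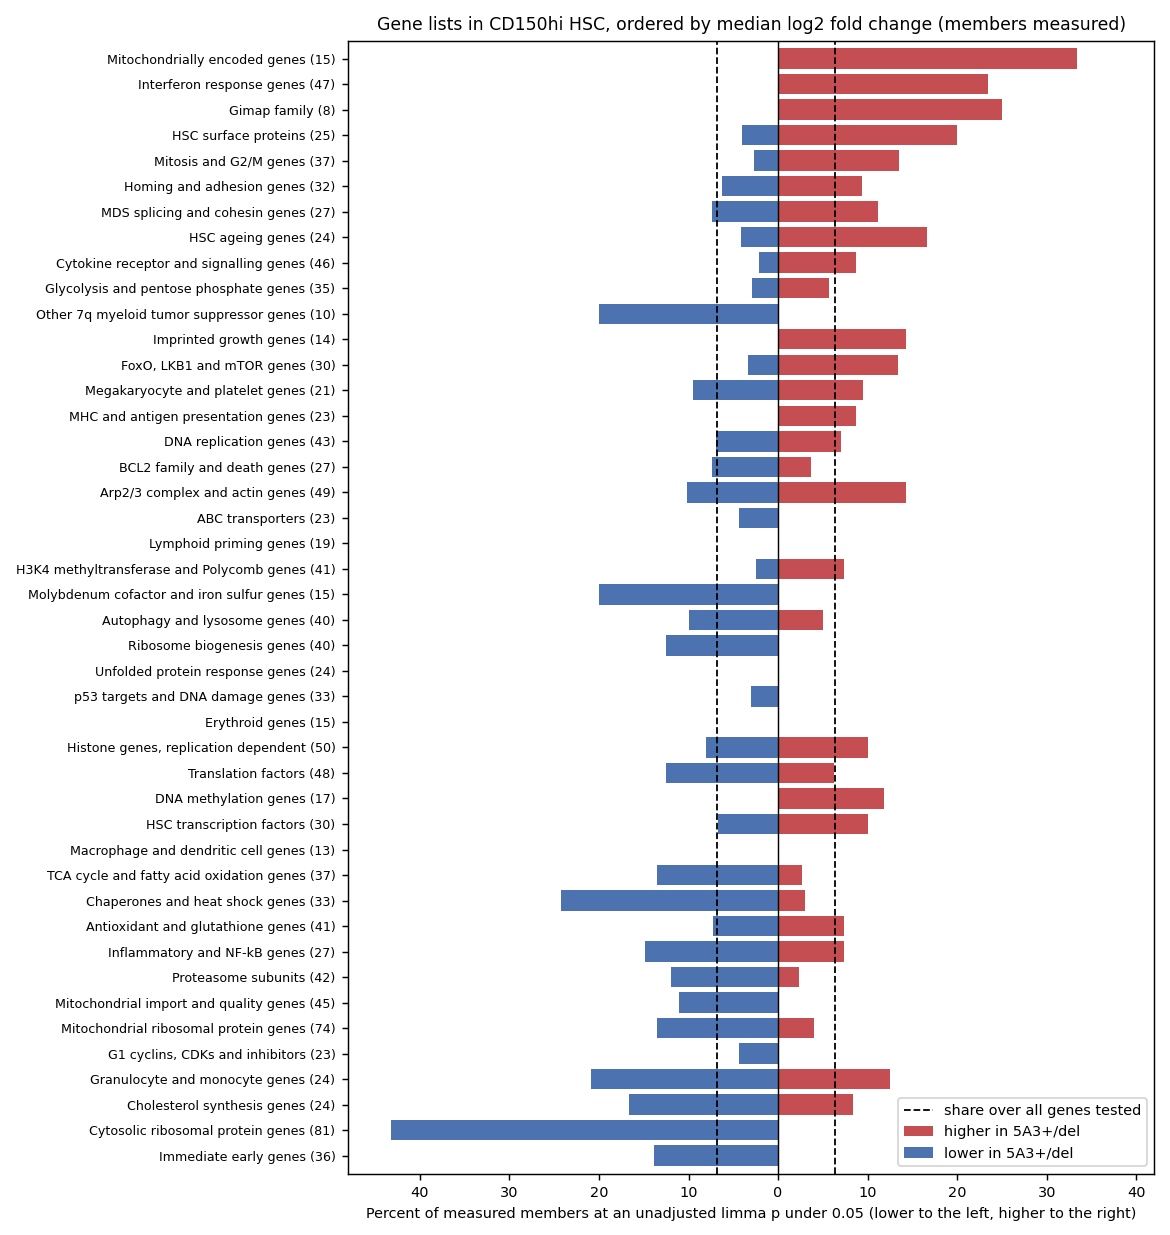
Percent of the measured genes of each list with 8 members or more that were higher or lower in 5A3+/del CD150hi HSC at an unadjusted p under 0.05. Lines mark the percents over all tested genes, 6.30 higher and 6.79 lower; 35 of 81 ribosomal protein genes lie on the lower side, and on the higher side lie 5 of 15 mitochondrially encoded genes, 2 of 8 genes of the Gimap family and 11 of 47 interferon response genes.

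Markers of other blood cells were read for the content of the sorted samples, from which cells stained for the granulocyte marker Gr-1 had been gated out. Summed FPKM of 29 granulocyte and monocyte genes was 1232, 652, 392, 423 and 619 in WT and 354, 460, 365, 312 and 328 in 5A3+/del libraries. WT replicates 1, 2 and 5 were highest, and 5A3+/del replicate 2 exceeded WT replicates 3 and 4. None of the 29 genes was at 0 in all 10 libraries. Lyz2, the most abundant, had a mean of 179 in WT and 194 in 5A3+/del mice, so the gap lay in other genes. Of the 24 genes that passed the filter, 5 were lower, 3 higher and the median was -0.14, which became 0.02 without WT replicate 5 and -0.23 without WT replicate 4.

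Ngp, a neutrophil granule protein, had FPKM of 110, 20.9, 12.9, 6.02 and 16.9 in WT and 0.401, 2.12, 1.92, 2.45 and 0.0243 in 5A3+/del mice. The groups did not overlap, WT replicate 1 was highest, and the log2 fold change was -3.19 (adjusted p = 0.12). The alarmin gene S100a8, chosen with S100a9 after the values were seen, had 478, 146, 16.8, 54.9 and 152 in WT and 0, 62.5, 7.22, 8.17 and 11.3 in 5A3+/del mice. WT replicates 3 and 4 lay below 5A3+/del replicate 2 (log2 fold change -3.35). S100a9 had 246, 155, 26.8, 64 and 129 in WT and 22, 52.5, 4.70, 5.08 and 2.60 in 5A3+/del mice, with WT replicate 3 below 5A3+/del replicate 2 (log2 fold change -3.14). For lactoferrin, Ltf, the log2 fold change was -1.43. Itgam, the CD11b gene of myeloid cells (log2 fold change 0.92), and Csf2rb, the shared beta chain of cytokine receptors (log2 fold change 0.61), went the other way. With WT replicates 1 and 2 left out, a choice made after seeing the data, 3 genes outside the interval and OXPHOS were called, none of them among the 18, 30 ribosomal protein genes were lower, 6 interferon response genes were higher and 1 immediate early gene was lower. The 3 genes, seen only then, were Gm11129, Gm12306 and AC153918.1, all lower.

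The other marker lists had 0 genes at an unadjusted p under 0.05 in either direction among the macrophage and dendritic cell (13 measured), mature lymphocyte (6), erythroid (15), stromal and endothelial (6) and lymphoid priming genes (19). With 1 replicate left out, 1 lymphoid priming gene was higher without WT replicate 4, 1 stromal gene without 5A3+/del replicate 2 and 1 erythroid gene without 5A3+/del replicate 4, and 1 erythroid gene was lower without WT replicate 1. Summed FPKM of the macrophage list was 29.7 to 70.3 in WT libraries and 44.8 to 70.1 in 5A3+/del libraries, with Bst2 its most abundant gene. That of mature lymphocytes was 6.53 to 16.3 and 6.29 to 21, mostly Nkg7, with Gzma, Ms4a1, Ncr1 and Trac at 0 in all 10 libraries. Erythroid genes summed to 546 to 639 and 489 to 609, Car2 first, and stromal genes to 12.4 to 21.2 and 14 to 18, Pecam1 first and Bglap at 0. Lymphoid priming genes summed to 213 to 309 and 212 to 283, Cd27 first and Bcl11b at 0. Megakaryocyte and platelet genes, whose RNA HSC also hold, summed to 572 to 634 and 586 to 655, with Gp6 at 0 and 2 of 21 higher and 2 lower. Without WT replicate 4, 0 of these were lower, and without WT replicate 3, 1 was higher.

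The remaining question was whether the effect of the deletion in CD150hi HSC differed from that in the other populations. For the difference from CD150lo HSC limma called 0 genes (0%), and 614 (3.98%) had an unadjusted p under 0.05. Without a filter on low values 1 gene was called, AL645623.1, which was listed at 0 in all 10 CD150hi libraries. For the difference from CD150neg MPP it also called 0 genes, with 1227 (7.96%) at an unadjusted p under 0.05. AC127419.1 was called when the length and GC trends were removed and when 5A3+/del replicate 1 was left out. The 18 genes called in CD150hi HSC are thus not shown to differ from the other populations in their response.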

How the data were processed

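Sorted stem and progenitor cells gave 29 RNA libraries, 10 of them CD150hi HSC (5 WT, 5 5A3+/del). The authors aligned reads to mm9 with Bowtie 0.12.2, used HTSeq, and deposited FPKM for 30025 genes; how FPKM were computed is not stated. The members and gene lists were chosen with earlier results of these data known.

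Genes that reached an FPKM of 1 in 4 or more libraries were kept. Values plus a pseudocount of 1 were taken as log2 and quantile normalized across all libraries. limma 3.58.1 in R 4.3.3 was fitted with 6 group means, and contrasts of 5A3+/del minus WT, and their differences between populations, were tested two-sided with Benjamini-Hochberg adjustment and a threshold of 0.05. Python 3.11.15, pandas 2.3.3 and matplotlib 3.10.9 did the rest. GENCODE models of mm9, matched for 97.52% of gene IDs, gave positions, lengths and GC content. Fragments per library came from steps of FPKM times length; 98.77% to 99.07% of low values lay within 0.1 of a whole number, and depth ranged from 25250346 to 33849281. The limma fit, but not the fragment estimate, was tested on simulated data.

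Genes named were 17 of the 18 called genes outside the interval and OXPHOS, the 10 largest differences among other genes with an unadjusted p under 0.001, a mean FPKM of at least 5 in a genotype and no overlap of normalized values, up to 4 genes per list by p with the most abundant one, and marker genes, apart from a few that were left out. Left out were 12 tested interval genes and 83 nuclear OXPHOS genes. Alternatives covered normalization, pseudocount, filter, fit, age, replicate and mouse blocks, length and GC trends, and each library left out. Chosen after seeing the data were protein-coding genes alone, detected genes as a covariate, and leaving out the libraries with the fewest detected genes or with Ly6g.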

Additional observations from a re-analysis of the deposited data

Results flagged for a closer look

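In 138 groups of 5 libraries, formed by genotype for library measures, gene list means and called genes, 1 library lay far from the other 4 in 12 cases. Chance gives about 1 in 20 groups. Xist was 303 FPKM in WT replicate 3, and Y-linked genes summed to 0.0222 FPKM in the same library. Its mean log2 value of DNA replication genes was 3.54, with 3.17 to 3.25 in other WT libraries, and its log2 value of Gpx4 was 4.25, with 4.71 to 4.87 in the others.

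In 5A3+/del replicate 1 the mean log2 value was 4.46 for proteasome subunits (4.64 to 4.70 in the other 5A3+/del libraries), 3.31 for mitochondrial import and quality genes (3.48 to 3.54), 4.07 for antioxidant and glutathione genes (4.30 to 4.39) and 3.56 for autophagy and lysosome genes (3.74 to 3.80). This library, which had the fewest detected genes, also had the lowest log2 value of Gpx4, 2.97 against 3.86 to 4.22.

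The mean log2 value of granulocyte and monocyte genes was 2.67 in 5A3+/del replicate 2 (1.94 to 2.02 in the others). That of HSC ageing genes was 3.13 in WT replicate 4 (3.34 to 3.37). Trappc4 had a log2 value of 4.63 in WT replicate 5 (4.21 to 4.29).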

How the results depend on the processing

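No gene followed across the settings changed direction. A list counted as reversed only if its median exceeded the spread of that median between libraries, and none was. Lists below that spread could change sign uncounted. The median of granulocyte and monocyte genes went from -0.14 to 0.02 without WT replicate 5. That of replication-dependent histone genes went from -0.04 to 0.13 without the length and GC trends. The count of 18 genes called outside the interval and OXPHOS changed by more than 1.5 times in several settings. It was 10 with a pseudocount of 0.1, 68 without a filter on low values, 77 with an FPKM of at least 10 in 1 library as the filter, 0 in the CD150hi libraries alone, 91 with a trend of spread over level, 50 with the mouse as a random block (correlation 0.07924) and 11 with a replicate block. With 1 library left out it ranged from 2 to 34. Replicates of the same number were different mice and were not treated as pairs in the main fit. Correlations of their deviations were 0.0381, 0.0619, 0.0807, 0.0432 and 0.00331. Of 5 WT libraries, 3 correlated best with the 5A3+/del library of their number. Whether the numbers mark pairs is not known. Among alternatives chosen after seeing the data, the count was 38 for protein-coding genes alone, 7 without the libraries with the fewest detected genes and 3 without the libraries with Ly6g. With length and GC trends removed it was 19, 10 higher and 9 lower, 12 shared with the 18.

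The count of genes whose effect differed from CD150lo HSC was 1 without a filter and 0 otherwise, and from CD150neg MPP it was 1 with length and GC trends removed and 0 to 1 with 1 library left out. The cause was not tested for any of these. Of other values, fold changes of named genes stayed on their side of the threshold in 2337 cases, lost the call in 218 and gained it in 72. List medians moved by more than the spread between libraries in 8 of 1316 cases. For some lists that spread was wider than the median itself, 0.358 beside -0.20 for immediate early genes. With 5 libraries per genotype, genes near 3 fragments could not be compared.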

Other observations

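Genes that do not encode proteins were read by their annotated type in CD150hi HSC, at an unadjusted p under 0.05. Of 602 long intergenic noncoding RNA genes, 42 were higher and 24 lower in 5A3+/del mice, with a median log2 fold change of 0.03. Of 451 antisense genes, 19 were higher and 22 lower, with a median of 0.02. Of 385 microRNA genes, 25 were higher and 18 lower, with a median of 0.02. The 12262 protein-coding genes had 797 higher and 802 lower and a median of 0.01.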
